A study of Danio rerio with 6 samples.

Results

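The records with the lengths of the 7 mitochondrially encoded subunits of respiratory complex I were examined in zebrafish (Danio rerio) heart ventricles. The deposited tables name each transcript by an Ensembl ID alone, and none of these 57775 IDs could be looked up in the available gene tables (0 matches). The records were therefore found by length: 1 run of 13 consecutive records has the lengths, in order, of the 13 protein-coding genes of the mitochondrial genome in the RefSeq table of assembly GRCz12tu, where any other run matched at most 2. Records 1, 2, 8, 9, 10, 11 and 12 of that run have the lengths of ND1 (ENSDART00000093596.3, 975 bases), ND2 (ENSDART00000093600.3, 1047 bases), ND3 (ENSDART00000093615.3, 351 bases), ND4L (ENSDART00000093617.3, 297 bases), ND4 (ENSDART00000093618.3, 1381 bases), ND5 (ENSDART00000093622.3, 1821 bases) and ND6 (ENSDART00000093623.3, 519 bases). They are 7 of the 57775 records, and each is called here by the gene whose length it has. No ID pairs them with that gene, so the names rest on length and order. All of these genes lie on chromosome MT, the mitochondrial genome.

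The study compared fish carrying 1 truncated copy of ttna (ttna+/-, the line called ttnaA in the labels, with the truncating change in exon 201) with their wild-type (WT) siblings at 6 months of age. The ttna gene encodes titin, the giant elastic protein of the heart muscle sarcomere. Each library was made from polyadenylated RNA of 6 pooled ventricles, with 3 libraries per genotype given as biological replicates, and was read as 50-base pairs. Values are therefore averages over a pool, and fish within a pool cannot be compared. No label gives a strand setting, and no marker gene could be looked up by ID, so the tissue label was not checked against markers and ttna itself was not examined here.

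Complex I (NADH dehydrogenase) takes electrons from NADH, passes them to ubiquinone and pumps protons across the inner mitochondrial membrane, the first step of the respiratory chain on which heart muscle depends for ATP. Most of its subunits are nuclear genes, while the hydrophobic core of its membrane arm, which moves the protons, is encoded in mitochondrial DNA by the genes ND1 to ND6 and ND4L. Vertebrate mitochondrial DNA is transcribed as long precursors from both strands and cut into single messages. The ND4L and ND4 reading frames overlap and are known to stay together as 1 message. ND6 is the only one of the protein-coding genes read from the other strand, and ND5 and ND6 lie end to end on opposite strands. In human cells the ND6 message is known to lack a stable poly(A) tail. Whether this bears on the libraries of polyadenylated RNA used here was not tested.

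The libraries held between 28688112 and 44412410 estimated counts. Depth and fragment size both followed genotype. In transcripts over 2000 bases, annotated length exceeded effective length by 168 ± 1.31 bases in ttna+/- and 158 ± 4.35 bases in WT (SD, n = 3 per group), and neither feature overlapped between the groups. Counts scaled to a common library total are given as CPM. With the totals adjusted by TMM scaling factors, libraries also stood apart along the first principal component of log2 CPM (39.6% of the variance). Its scores were -98.5, 56.5 and -107 in ttna+/- 1, 2 and 3 and -32.6, 95.8 and 85.5 in WT 1, 2 and 3, so that ttna+/- 2 lay on the side of WT 2 and 3, and WT 1 on the side of ttna+/- 1 and 3.

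Together the complex I-length records made up between 3.47% and 4.56% of summed TPM, and between 2.24% and 3.07% of estimated counts. In TPM, a relative abundance that sets the estimated count over the effective length and sums to the same total in each library, they summed to 3.93%, 4.56% and 4.55% of the total in ttna+/- 1, 2 and 3. In WT 1, 2 and 3 the sum was 3.47%, 4.35% and 4.46%. The group means were 4.34% ± 0.362 and 4.09% ± 0.545 (SD, n = 3 per group), and the ranges overlapped. The lowest shares were those of ttna+/- 1 and WT 1. In bulk tissue, fewer cells of a type and less RNA per cell cannot be told apart, so these shares are not levels per cell. All 13 records of the run took between 18.4% and 23.6% of summed TPM, and the complex I-length records held 20.2% ± 0.802 of the run in ttna+/- and 19.1% ± 0.795 in WT.

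The members fell into an abundant class and a scarce one. Over the 6 libraries, mean TPM was 8899 for ND4L, 8426 for ND4, 8039 for ND3, 7682 for ND1 and 6811 for ND2, and 1330 for ND6 and 1000.2 for ND5. A narrow band thus held ND4L, a small subunit inside the membrane arm, and ND4 and ND2, both related to proton antiporters and thought to pump protons. It also held ND3, a small subunit near the joint with the peripheral arm, and ND1, which helps to form the quinone-binding site. These 5 records ranked between 13th and 24th among all records in every library. The ND6 record, for a small membrane subunit packed beside ND3 and ND4L, ranked between 42nd and 168th. The ND5 record, for the large subunit at the far end of the membrane arm, ranked between 80th and 184th. The step between the classes was present in every library: ND2 stood 2.96-fold to 11.0-fold above ND6.

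Neighbours within a class were mostly not separated beyond the spread between libraries. ND4L stood above ND4 in all 6 libraries, by 1.00-fold to 1.09-fold in TPM, and ND1 stood above ND2 in all 6, by 1.03-fold to 1.26-fold. ND4 exceeded ND3 in 4 of 6 libraries and ND3 exceeded ND1 in 4 of 6, so neither order held beyond the spread. ND6 exceeded ND5 in 5 of 6 libraries, at 0.973-fold to 1.58-fold, with WT 2 the exception.

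**Figure D1:**
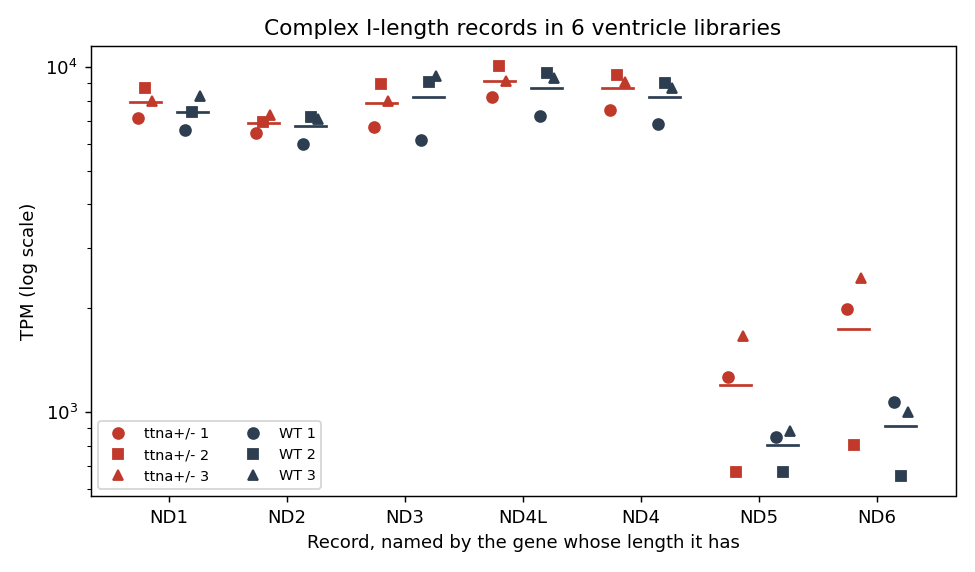
TPM (log scale) of the complex I-length records in the 6 libraries, with ttna+/- in red, WT in dark blue, 1 symbol per replicate number and a bar at each group mean. ND1, ND2, ND3, ND4L and ND4 lie between 5982 and 10044 TPM, and ND5 and ND6 between 655 and 2447 TPM, with ttna+/- 1 and 3 highest for both.

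The order inside the abundant class depended on the length correction. TPM divides by the effective length, the number of positions where a fragment can start, and for short records this removes much of the length: 46.9% to 50.1% of the ND4L length remained, against 87.7% to 88.9% for ND4. With CPM per kilobase of annotated length instead, the means were 7531 for ND4, 6478 for ND1, 5819 for ND2, 4476 for ND3 and 4350 for ND4L. The first place then went to ND4 in all 6 libraries, followed by ND1 and ND2, again in all 6. ND3 and ND4L exchanged places between libraries, 3 against 3. The scarce pair was unaffected as a class, at 909 CPM per kilobase for ND5 and 902 for ND6, but ND6 now exceeded ND5 only in ttna+/- 1 and 3.

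**Figure D2:**
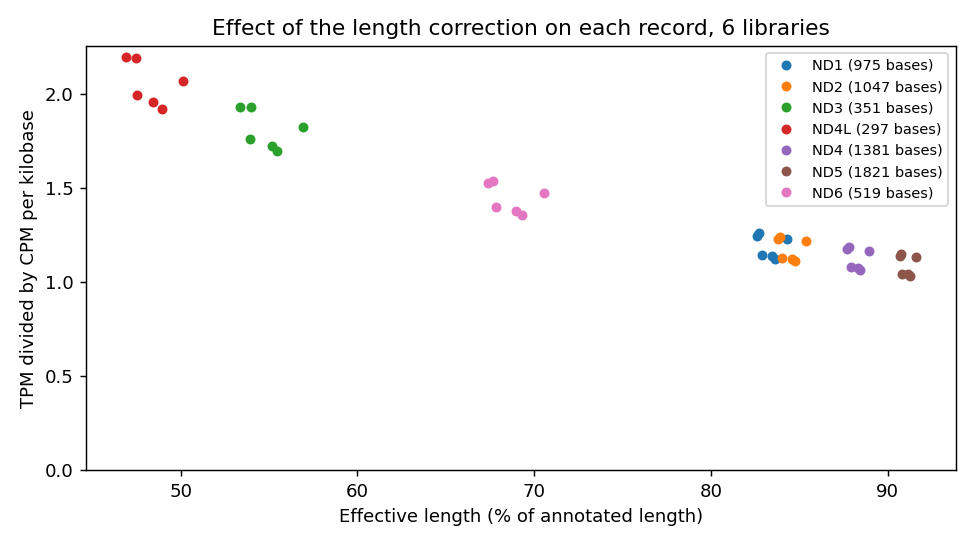
TPM divided by CPM per kilobase (vertical axis, from 0) against the effective length as a percentage of annotated length, with 1 point per library and 1 colour per record. The ratio reaches 1.92 to 2.197 for ND4L and 1.03 to 1.15 for ND5, so levels of the shortest records depend most on the effective length.

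The counts behind these levels were large. Each member held between 8553 (ND6 in WT 2) and 493760 (ND4 in ttna+/- 2) estimated counts in a library, so that counting error alone is 0.142% to 1.08% of a value. The tables carry at most 6 significant digits, which leaves room for a decimal only under 100000 counts. All 23 member values under that limit were whole at the digits given, so at that precision those values show no trace of reads divided with another record. How often values outside the run were whole was not counted. Every ND1, ND2 and ND4 value lay above the limit, as did ND5 in ttna+/- 3, so these could not be checked. The spread of each member's level between libraries, described below, is far wider than counting error. Some differences between records lie closer to it. In ttna+/- 3 the ND4 record stood at 0.995 of the ND4L record in TPM, where counting error was 0.146% for ND4 and 0.427% for ND4L.

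The abundant records kept close company across libraries and overlapped between the genotypes. The ND1 record stood at 7135, 8723 and 7973 TPM in ttna+/- 1, 2 and 3 and at 6576, 7430 and 8254 TPM in WT 1, 2 and 3. The ND4 record stood at 7533, 9466 and 9067 TPM in ttna+/- and at 6843, 8973 and 8673 TPM in WT, in the same library order. For both, WT 1 was the lowest library, ttna+/- 2 the highest, and the groups overlapped. The ND2 record ran from 6452 to 7240 TPM in ttna+/- and from 5982 to 7183 in WT, the narrowest spread of the members (coefficient of variation 7.27% over 6 libraries). The ND3 record ran from 6691 to 8916 TPM in ttna+/- and from 6156 to 9445 in WT, and the ND4L record from 8185 to 10044 and from 7193 to 9586. The groups overlapped for each of these records, and WT 1 was the lowest library for all 5.

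The ND5 and ND6 records varied far more and followed another order of libraries. The ND5 record stood at 1263, 674 and 1659 TPM in ttna+/- 1, 2 and 3 and at 850, 674 and 882 TPM in WT 1, 2 and 3. The ND6 record stood at 1997, 802 and 2447 TPM in ttna+/- and at 1075, 655 and 1004 TPM in WT. For both records ttna+/- 1 and 3 lay above every WT library, while in TPM ttna+/- 2 lay inside the WT range. For ND5 it lay at the lower edge of that range, and in CPM (1174) it lay below every WT library (1190 to 1542). The groups therefore overlapped. The highest library exceeded the lowest 2.46-fold for ND5 and 3.74-fold for ND6, against 1.21-fold to 1.53-fold for the 5 abundant members.

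Within ttna+/- the coefficient of variation was 41.4% for ND5 and 48.6% for ND6, and within WT it was 14.0% and 24.6%. The library where ND5 and ND6 were lowest among ttna+/- was the one where ND1, ND3, ND4L and ND4 were highest. ND5 and ND6 together made up 8.30%, 3.24% and 9.03% of the members' summed TPM in ttna+/- 1, 2 and 3, and 5.55%, 3.05% and 4.23% in WT 1, 2 and 3. The lowest of these shares were those of ttna+/- 2 and WT 2.

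**Figure D3:**
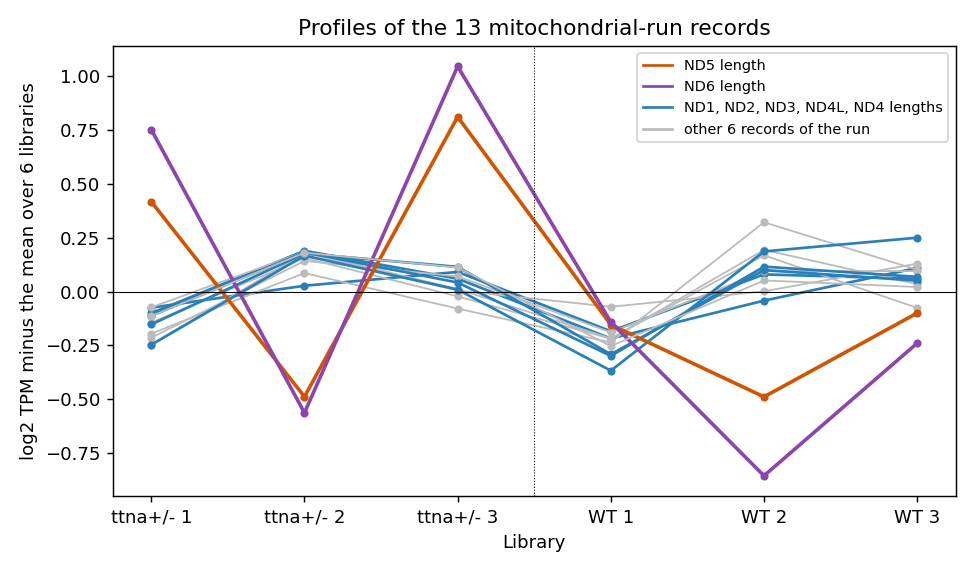
log2 TPM of each record of the run minus its own mean over the 6 libraries, by library, with lines only joining the values of a record. ND5 (orange) and ND6 (purple) reach 0.81 and 1.05 in ttna+/- 3 and -0.49 and -0.86 in WT 2, while the other 11 records stay between -0.37 and 0.32.

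The likeness of the records' profiles was taken from the same values, so it is not separate support for this grouping. It was measured as the root mean square difference between centred log2 TPM values over the 6 libraries, so that 0 means an identical profile. The record most like ND4L was ND4 (0.04), with which ND4L is known to share a message, and the record most like ND3 was ND4L (0.10). The record most like ND1, ND2 and ND4 was the CYTB-length record in each case, at 0.06, 0.07 and 0.03; CYTB encodes cytochrome b of complex III. ND5 and ND6 were each most like the other, at 0.23, and both were least like the COX2-length record (complex IV), at 0.61 and 0.83. ND6 was the least similar of the 12 other records to every one of the 5 abundant members, at 0.70 to 0.81. The measure grows with a record's own spread. The root mean square of a record's own centred values was 0.47 for ND5 and 0.68 for ND6, against 0.10 to 0.23 for the abundant members. Outside the run, 675 records had a mean of at least 100 TPM and no library at 0. Of these, ENSDART00000010773.8 (2368 bases) was nearest to ND5, at 0.20, and ENSDART00000139899.4 (938 bases) was nearest to ND6, at 0.25. Neither ID is paired with a gene here.

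The comparison of ttna+/- with WT ventricles asks whether messages of complex I differ when 1 copy of ttna is truncated. None of the members passed the test. With edgeR's quasi-likelihood test on rounded estimated counts, fitted to 29950 transcripts with Benjamini-Hochberg adjustment, 0 of 7 had an adjusted p under 0.05, against 0% of all transcripts tested. At an unadjusted p under 0.05 the count was also 0 of 7, against 10.6% of all transcripts. Among the 18 alternative settings, which refit the same libraries, ND6 had an unadjusted p under 0.05 in 5 and ND5 in 1. Many transcripts did so in those edgeR fits: 3043 of 29950 with RLE scaling and 3845 of 47943 with no filter. With a replicate block it was 3365 of 29950, and without ttna+/- 2 it was 5114 of 31029. DESeq2 likewise called 0 of 7 at an adjusted p under 0.05, against 1.74% of the transcripts to which it gave one, and at an unadjusted p under 0.05 it held 1 of 7 (ND6), against 8.37%. The groups did not overlap in CPM for 0 of 7 members, against 20.2% of all transcripts tested.

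The largest differences were those of the scarce records. ND6 had a log2 fold change of 0.93 ± 0.40 (SE, ttna+/- over WT), with an edgeR adjusted p of 0.480 and 2 of 3 ttna+/- libraries above every WT library. ND5 had a log2 fold change of 0.59 ± 0.32, with an adjusted p of 0.537 in edgeR and again 2 of 3 libraries above WT. Their unadjusted p-values in edgeR were 0.057 and 0.107. For the abundant members the log2 fold change was 0.11 ± 0.22 for ND1, 0.03 ± 0.20 for ND2, -0.09 ± 0.28 for ND3, 0.04 ± 0.24 for ND4L and 0.10 ± 0.24 for ND4, each smaller than its own SE. With library totals alone, or scaled to the run, the ND2 and ND4L values were below 0.

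The median over the 7 members was 0.10, against 0.01 over all transcripts tested, where 50.7% lay above 0 (6 of 7 members did). The members share library and genome, so these counts are not separate observations. Among transcripts within 20% of the length of ND5 the median log2 fold change was 0.00 (quartiles -0.30 and 0.37, 6007 transcripts). Within 20% of the length of ND6 it was -0.09 (quartiles -0.47 and 0.37, 1490 transcripts). ND5 and ND6, the members with the largest differences, thus lay above the upper quartile for their length. The abundant members lay between the quartiles for theirs. Part of the transcripts of any length lie above the upper quartile by definition, so this alone does not mark ND5 and ND6 as unusual.

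The size of the ND5 and ND6 differences rested on single libraries. Without ttna+/- 2 the log2 fold change of ND6 was 1.25 ± 0.24 and that of ND5 was 0.85 ± 0.22, with edgeR unadjusted p of 0.0027 and 0.0105 and adjusted p of 0.139 and 0.187. In that fit 5114 of 31029 transcripts had an unadjusted p under 0.05, against 3178 of 29950 with all libraries. Without ttna+/- 3 the log2 fold changes of ND6 and ND5 were 0.59 ± 0.37 and 0.28 ± 0.27, with adjusted p of 0.834 and 0.874 in edgeR. Leaving out either library changed the sign of neither.

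**Figure D4:**
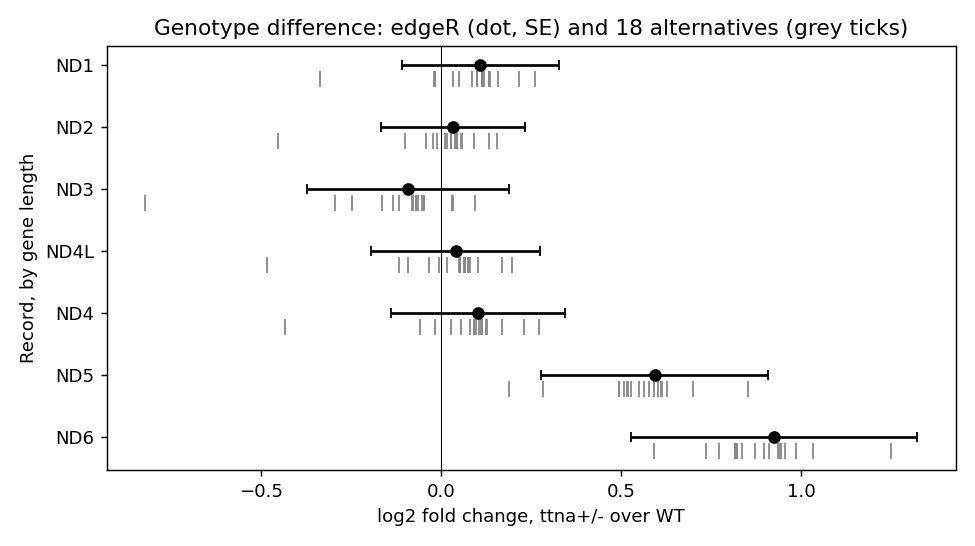
log2 fold change of each member (ttna+/- over WT), with the edgeR estimate as a dot, its SE as a bar and the values from 18 other settings as grey ticks. The bars of the 5 abundant records cross 0, and every tick of ND5 (0.19 to 0.85) and ND6 (0.59 to 1.25) lies above 0, although no adjusted p was under 0.05 in any of them.

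Ratios between records of the same library need no scaling factor, and 12 were compared between the genotypes: 5 between members next to each other in run order and 7 between a member and the summed TPM of the other 6 records (the lengths of COX1, COX2, COX3, ATP6, ATP8 and CYTB, subunits of complexes IV, V and III). With 3 libraries against 3, an exact two-sided permutation test cannot give less than p = 0.1. After Benjamini-Hochberg adjustment over the 12 ratios, the smallest p was 0.514.

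Ratios inside the abundant class varied by 1.08-fold to 1.25-fold over the libraries. The ND4 record stood at 0.920, 0.942 and 0.995 of the ND4L record in ttna+/- 1, 2 and 3 and at 0.951, 0.936 and 0.935 in WT 1, 2 and 3. That is a spread of 1.08-fold over the 6 libraries, the smallest of the 12 ratios. ND2 stood at 0.794 to 0.967 of ND1, and ND4L at 0.982 to 1.22 of ND3. In TPM the genotypes overlapped in each of these ratios. The log2 difference (ttna+/- minus WT) was 0.02 ± 0.03 (SE) for ND4/ND4L (exact permutation p = 0.8), -0.07 ± 0.08 for ND2/ND1 (exact permutation p = 0.4) and 0.12 ± 0.08 for ND4L/ND3 (exact permutation p = 0.3).

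The ratio of ND5 to ND4, next to each other in the run, varied more. ND5 stood at 16.8%, 7.12% and 18.3% of ND4 in ttna+/- 1, 2 and 3 and at 12.4%, 7.51% and 10.2% in WT 1, 2 and 3, a spread of 2.57-fold. The highest pair were ttna+/- 1 and 3, and the lowest pair ttna+/- 2 and WT 2. The log2 difference between the genotypes was 0.40 ± 0.48 (SE, exact permutation p = 0.5).

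ND6 and ND5, on opposite strands, varied less against each other. ND6 stood at 1.58, 1.19 and 1.48 times ND5 in ttna+/- and at 1.26, 0.973 and 1.14 times ND5 in WT, a spread of 1.63-fold. The ratio was highest where both records were highest, in ttna+/- 1 and 3, and lowest in WT 2. The log2 difference was 0.33 ± 0.17 (SE, exact permutation p = 0.2), with 2 of 3 ttna+/- libraries above every WT library. Without strand, reads from the ND6 message and from any transcript of the opposite strand over the same bases cannot be told apart, so the ND6 values may hold both. The same limit holds for the ND5 record and the other members.

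Set against the other 6 records, the abundant members again differed little between libraries. ND4 stood at 4.92%, 4.96% and 5.24% of their sum in ttna+/- 1, 2 and 3 and at 4.57%, 4.70% and 4.88% in WT, and ND4L at 5.35%, 5.26% and 5.27% and at 4.80%, 5.03% and 5.22%. For single levels in CPM, the groups did not overlap for 20.2% of all transcripts tested. Of the 12 ratios in TPM, those of ND4 and ND4L to the other 6 records were the only 2 whose groups did not overlap. Their log2 differences were 0.10 ± 0.04 and 0.08 ± 0.04 (SE, exact permutation p = 0.1 for each, adjusted 0.514). The separation was lost when counts were divided by annotated length: the highest WT library (ND4 6.22%, ND4L 3.65%) then lay above the lowest ttna+/- library (ND4 6.20%, ND4L 3.60%). The sum of the other 6 records holds the 165-base ATP8-length record, whose effective length was 24.2% to 25.4% of annotated length. Its mean of 35588 TPM was the highest of the 6, so percentages of that sum in TPM also depend on the length correction. In TPM the ND1, ND2 and ND3 ratios overlapped between the groups, with log2 differences of 0.10, 0.03 and -0.04. With counts over annotated length, the groups did not overlap in ND4/ND4L. That ratio stood at 1.72, 1.74 and 1.84 in ttna+/- 1, 2 and 3 and at 1.69, 1.69 and 1.70 in WT. Its exact permutation p on that scale was 0.533 after adjustment over the 12 ratios. That scale leaves out the effective length, which for ND4L did not overlap between the groups. It was 46.9% to 47.6% of annotated length in ttna+/- and 48.5% to 50.1% in WT. The log2 difference in ND4/ND4L was 0.06 on that scale and 0.02 in TPM, where the groups overlapped. The part of fragment size in this separation was not tested.

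ND5 stood at 0.825%, 0.353% and 0.959% of the other 6 records in ttna+/- and at 0.567%, 0.353% and 0.496% in WT. ND6 stood at 1.30%, 0.421% and 1.42% in ttna+/- and at 0.717%, 0.344% and 0.565% in WT. The spread over the 6 libraries was 2.72-fold for ND5 and 4.12-fold for ND6, against 1.11-fold to 1.29-fold for the abundant members. The log2 differences between the genotypes were 0.50 ± 0.49 for ND5 and 0.83 ± 0.65 for ND6 (SE, exact permutation p = 0.3 for each).

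**Figure D5:**
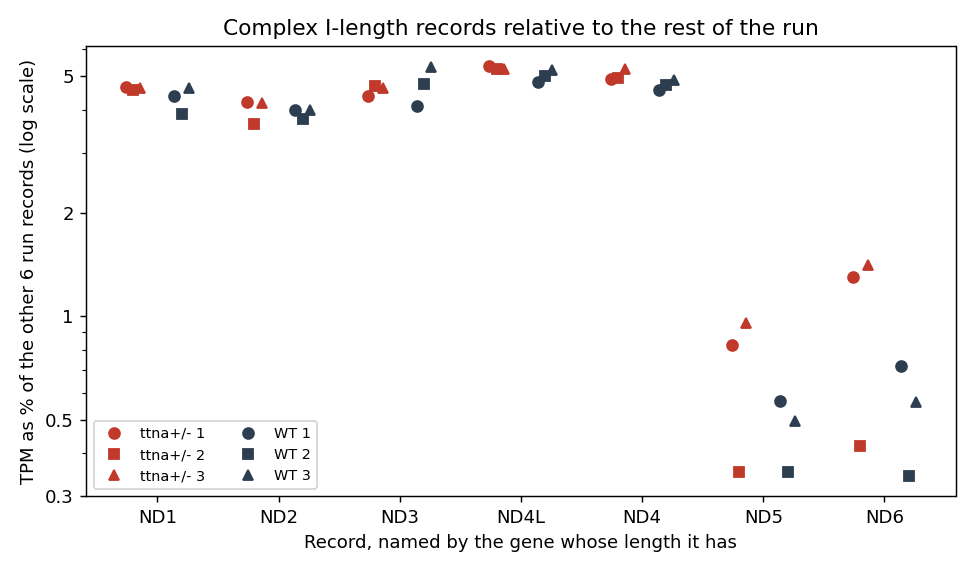
TPM of each complex I-length record as a percentage of the summed TPM of the other 6 records of the run (log scale), by library, with ttna+/- in red and WT in dark blue. ND1, ND2, ND3, ND4L and ND4 stay between 3.63% and 5.35%, and ND5 and ND6 range from 0.344% to 1.42%.

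The other 6 mitochondrial records did not pass the test either: 0 of 6 passed edgeR's adjusted or unadjusted threshold, and their log2 fold changes lay between -0.15 and 0.13, with a median of 0.02 and 3 of 6 above 0. Nuclear subunits of complex I could not be looked up among the IDs and were not examined.

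The first principal component went with the ND5 and ND6 levels at its extremes, but not in every library. The libraries with the highest ND5 and ND6 values, ttna+/- 3 and 1, had the lowest first-component scores (-107 and -98.5). The library with the lowest share, WT 2, had the highest score (95.8). WT 3 scored 85.5, yet its ND5 (882 TPM) lay above that of WT 1 (850 TPM, score -32.6). The ND5 and ND6 (1004 TPM) values of WT 3 also lay above those of ttna+/- 2 (674 and 802 TPM, score 56.5). Of the ttna+/- libraries, ttna+/- 2 had the lowest depth and the smallest length gap. Its depth was 40808904 counts against 40879727 and 44412410 in ttna+/- 1 and 3, and its gap was 167 bases against 169.7 and 168. In an edgeR fit with the length gap as a term, which follows genotype, the log2 fold change was 0.19 ± 0.76 (SE) for ND5 and 0.74 ± 0.98 for ND6, with adjusted p of 0.964 and 0.894. The part of depth and of the first component in the ND5 and ND6 values was not tested.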

How the data were processed

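Polyadenylated RNA of 3 ttna+/- and 3 WT pools of zebrafish ventricles was sequenced. For each library the authors deposited a table with annotated length, effective length, estimated counts and TPM per Ensembl transcript. The deposited estimated counts were unscaled, and the deposited TPM matched counts divided by effective length and scaled to a common total (largest relative difference 9.8e-06 above 1 TPM). Tools named in the submitters' processing notes are TopHat2 2.1.1, Cufflinks 2.2.1 and Cuffdiff, and builds are Zv9 and GRCz11, all without roles. The program and annotation behind the tables were not given in the sources used here.

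Estimated counts were rounded and tested with edgeR 4.0.16 in R 4.3.3 (TMM, filterByExpr with a minimum count of 10, robust quasi-likelihood fit, genotype as the only term), with Benjamini-Hochberg adjustment over all 29950 transcripts that passed. All 7 members passed that filter. The SE was the log2 fold change over the square root of F. Exact permutation tests were run over all 20 assignments of libraries. The reported edgeR fit, DESeq2, limma-voom and limma on log2(CPM + 1) were run on simulated data. The other settings and the permutation tests were not. Alternatives were DESeq2 1.42.0, limma 3.58.1 (voom, log2(TPM + 1), log2(TPM + 0.1)), other scalings and filters, a replicate block, the length gap as a term, an effective length offset and leaving out each library.

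All members were named, and the record nearest in profile to each. Replicate numbers are those of the titles; the names of the WT tables carry numbers 1 higher. Members and lists were chosen with earlier results of these data known. P-values set a difference between genotypes against the spread between pools. Those of the reported tests do not separate genotype from depth or fragment size, which follow it. Cell type markers and nuclear complex I genes need symbols and were not examined.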

Additional observations from a re-analysis of the deposited data

How the results depend on the processing

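No member passed an adjusted p of 0.05 in any of the 18 alternatives; the adjusted p ran from 0.139 to 0.964 for ND5 and ND6 and from 0.617 to 0.995 for the other 5. The log2 fold changes of ND5 and ND6 were above 0 in all 18. The edgeR unadjusted p of ND6 was 0.0485 with RLE scaling and 0.0432 with no filter, and DESeq2 gave 0.0171. The log2 fold changes of the other 5 were smaller than their SE in the reported fit and changed sign in some alternatives. With the length gap as a term, which follows genotype, ND1 was -0.33 ± 0.50 (SE), ND2 -0.45 ± 0.45, ND3 -0.82 ± 0.59, ND4L -0.48 ± 0.52, ND4 -0.43 ± 0.55, ND5 0.19 ± 0.76 and ND6 0.74 ± 0.98. With library totals alone ND2 was -0.0415 and ND4L -0.0327, and scaled to the run they were -0.0113 and -0.0059. Leaving out 1 library gave -0.0196 to 0.262 for ND1, -0.0982 to 0.158 for ND2, -0.293 to 0.094 for ND3, -0.116 to 0.197 for ND4L, -0.0568 to 0.273 for ND4, 0.28 to 0.85 for ND5 and 0.59 to 1.25 for ND6. Of the genotype differences in log2 ratio, leaving out 1 library gave -0.0145 to 0.042 for ND4/ND4L, -0.00511 to 0.102 for ND2 and -0.14 to 0.0452 for ND3 against the other 6 records, and changed the sign of no other. Division by annotated length or no length correction changed the sign of none. For the members' summed level, the log2 ratio of group means was 0.09, and -0.02 to 0.15 without 1 library. Over all transcripts edgeR called 0 (range 0 to 0 without 1 library), DESeq2 589, and limma 1 (pseudocount 1) or 8 (pseudocount 0.1); the cause was not tested. With a fold over 2 as well, these were 0, 436, 1 and 8. At an unadjusted p under 0.05 edgeR held 3178 of 29950 transcripts, 2066 of 29950 scaled to the run and 1367 of 29950 once the length gap was a term. With a mean of at least 5 CPM it held 1794 of only 12349, so that count is not a fall on the same base. Without 1 library it held 1933 to 5114, of 30612 to 31750 tested.

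The replicate block left every sign and every adjusted call as it was: ND6 was 0.82 ± 0.23 (edgeR unadjusted p = 0.021, adjusted 0.415) and ND5 0.52 ± 0.21 (unadjusted p = 0.066, adjusted 0.458), and edgeR called 0 transcripts. The SE of every member was smaller with the block, at 0.12 against 0.22 for ND1 and 0.10 against 0.24 for ND4. The replicate numbers were not taken as pairs. Deviations of same-numbered libraries correlated across transcripts at 0.24, 0.20 and -0.20, and those of differently numbered libraries at -0.38 to 0.25. By the numbers in the names of the WT tables, which are 1 above those of the titles, other libraries would be paired. Counting error was at most 1.08% of a member value; the part of depth, which follows genotype, was not tested.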
